A study of Sus scrofa with 12 samples.

Results

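The genes described here belong to the pathway by which leukemia inhibitory factor (LIF) acts on cells, and they are LIF, LIFR, IL6ST, JAK1, STAT3, SOCS3, SOCS2 and PIM1. These 8 genes were looked up by symbol among the 24358 gene identifiers of 12 RNA sequencing libraries of pig induced pluripotent stem cells. Of them, 6 carried their own symbol and SOCS3 was paired with its identifier through a table of gene names, so that 7 were measured; no identifier was paired with SOCS2, which was not analysed here. The study built a fluorescent reporter of NANOG, a transcription factor of pluripotent cells, and used it to ask which signals control this gene. Expression was given as FPKM, a unit that divides a gene's fragments by transcript length and by how many fragments its library had in all.

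The libraries fell into 4 groups of 3. WT libraries came from unedited PC-iPS cells, which are pig pericytes reprogrammed to pluripotency. The paper gives OCT4, SOX2, KLF4 and c-Myc as the factors used for this. Knock-in libraries came from PC-iPS cells in which a FLAG tag, tdTomato and a puromycin cassette with its own promoter had been inserted at NANOG. These knock-in lines were selected for the reporter but were not clones, and single cells in them may carry the insertion on any number of alleles at either NANOG locus or on none. Activin A libraries came from knock-in cells given Activin A, a ligand of the TGF-β family, and SB431542 libraries from knock-in cells given an inhibitor of the TGF-β and Activin receptors. The labels name LCDMV, a medium with LIF, for all 4 groups, whereas the methods give the Activin A and SB431542 cultures the same medium without LIF. Per the methods, feeder cells were removed by a short plating step before RNA extraction, which is not stated group by group. The paper ran its cytokine screen without feeder cells but does not say so of its inhibitor experiment, and it later moved SB431542-treated cells to a feeder-free system. Whether the sequenced Activin A and SB431542 cultures had feeders is not stated. Knock-in cells kept without LIF and with neither agent were not analysed here.

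LIF is a secreted cytokine of the interleukin 6 family. It binds LIFR together with the shared subunit IL6ST (gp130), the receptor-bound kinase JAK1 phosphorylates STAT3, and STAT3 enters the nucleus and switches on its target genes. Among these are the SOCS genes, whose products shut the receptor complex down again, and PIM1, a serine/threonine kinase that promotes survival and growth. In mouse embryonic stem cells this pathway maintains self-renewal, and SOCS3 is its usual transcriptional readout.

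NANOG, the edited gene, was listed at 9.71, 16.4 and 27.6 FPKM in WT, at 52.0, 101 and 70.4 FPKM in knock-in, at 109, 195 and 157 FPKM in Activin A and at 11.8, 27.2 and 11.8 FPKM in SB431542 libraries. Pig NANOG has a near-identical copy on another chromosome, so that its reads may be shared between loci. Among pluripotent cell markers, 7 of 10 were listed, and POU5F1, the gene of OCT4, was not. Their summed level ran from 102 to 131 FPKM in WT, 262 to 473 in knock-in, 272 to 471 in Activin A and 294 to 611 in SB431542. In the library at 611 FPKM, LIN28A held 498 and NANOG 27.2 FPKM. ZFP42 was at 0 in all 12 libraries. Summed fibroblast and feeder cell markers, of which 9 of 9 were listed, reached 33.6 to 45.0 FPKM in WT, 63.3 to 92.4 in knock-in, 82.6 to 119 in Activin A and 47.3 to 52.1 in SB431542. The 8 pericyte markers summed to 29.0 to 31.5, 49.6 to 51.4, 44.1 to 49.9 and 59.2 to 60.2 FPKM in the same order, and markers of differentiated lineages, of which 13 of 14 were listed, to 33.4 to 42.9, 89.7 to 486, 98.4 to 414 and 122 to 921 FPKM. Outside WT the upper ends of these last ranges were mostly the keratin gene KRT8, at 428, 334 and 835 FPKM in the same order. CDX2 was at 0 in all 12 libraries, and GATA4 and SOX17 were at 0.0293 FPKM or less. Relative sequencing depth, read from the spacing of low values, was 0.566 to 0.633 of the deepest library in WT and 0.732 to 1 in the other groups. Bulk RNA cannot tell fewer cells of a type from less RNA per cell. The paper chose its numbered knock-in lines from 10 independently transfected cultures, and the knock-in libraries bear the names of these lines. For WT and the treated groups the labels do not say whether the libraries came from separate cultures. The p-values measure the spread between these libraries only.

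LIF itself (ENSSSCG00000040961, chr14:47221540-47239513 in RefSeq's annotation of Sscrofa11.1) had the lowest mean level of the 7 genes in every group. It was listed at 0.278, 0.110 and 0.245 FPKM in WT, 0.252, 0.277 and 0.102 in knock-in, 0.206, 0.592 and 0.266 in Activin A and 0.223, 0.322 and 0.127 in SB431542 libraries. All 4 groups overlapped. These values are RNA of the cells and say nothing of the LIF added to the medium.

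The receptor chains stood at very different levels. IL6ST (ENSSSCG00000016916, chr16:35101304-35151832), the signalling subunit, was listed at 16.6, 20.5 and 19.6 FPKM in WT, 12.8, 12.5 and 13.2 in knock-in, 13.9, 12 and 8.89 in Activin A and 13.5, 11 and 12.8 in SB431542 libraries. LIFR (ENSSSCG00000016850), the chain that binds LIF together with IL6ST, was listed at 0.641, 1.55 and 0.348 FPKM in WT, 0.446, 0.370 and 0.368 in knock-in, 0.520, 0.316 and 0.373 in Activin A and 0.276, 0.262 and 0.172 in SB431542. The spread among WT libraries came mostly from library 2, and the SB431542 libraries lay below all others.

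JAK1 (ENSSSCG00000003809, chr6:147320288-147567188), the kinase, was listed at 13.5, 9.82 and 13.3 FPKM in WT, 8.02, 6.08 and 9.01 in knock-in, 7.35, 6.99 and 10.3 in Activin A and 4.95, 5.27 and 8.85 in SB431542 libraries. STAT3 (ENSSSCG00000017403, chr12:20407316-20471091), the transcription factor, was listed at 10.2, 9.24 and 7.32 FPKM in WT, 6.52, 4.35 and 5.50 in knock-in, 4.91, 3.45 and 5.01 in Activin A and 4.15, 2.83 and 4.54 in SB431542. For STAT3 every WT library lay above every other library, whereas for JAK1 the third Activin A library, at 10.3 FPKM, was above the lowest WT library.

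The feedback inhibitor and the effector differed from these. SOCS3 (ENSSSCG00000036956, chr12:3643832-3647015), which binds IL6ST and blocks JAK activity, was listed at 6.70, 8.53 and 5.21 FPKM in WT, 4.19, 5.09 and 4.75 in knock-in, 6.68, 7.48 and 6.44 in Activin A and 4.61, 5.01 and 3.40 in SB431542 libraries. PIM1 (ENSSSCG00000001573, chr7:32788246-32793882) was listed at 16.5, 7.87 and 11.2 FPKM in WT, 49.5, 88.7 and 49.2 in knock-in, 96.2, 169 and 111 in Activin A and 45.2, 73.0 and 34.5 in SB431542. Activin A libraries were thus the highest for PIM1 without overlap with any group, and library 2 was the highest of its group in all 3 groups made from knock-in cells.

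**Figure D1:**
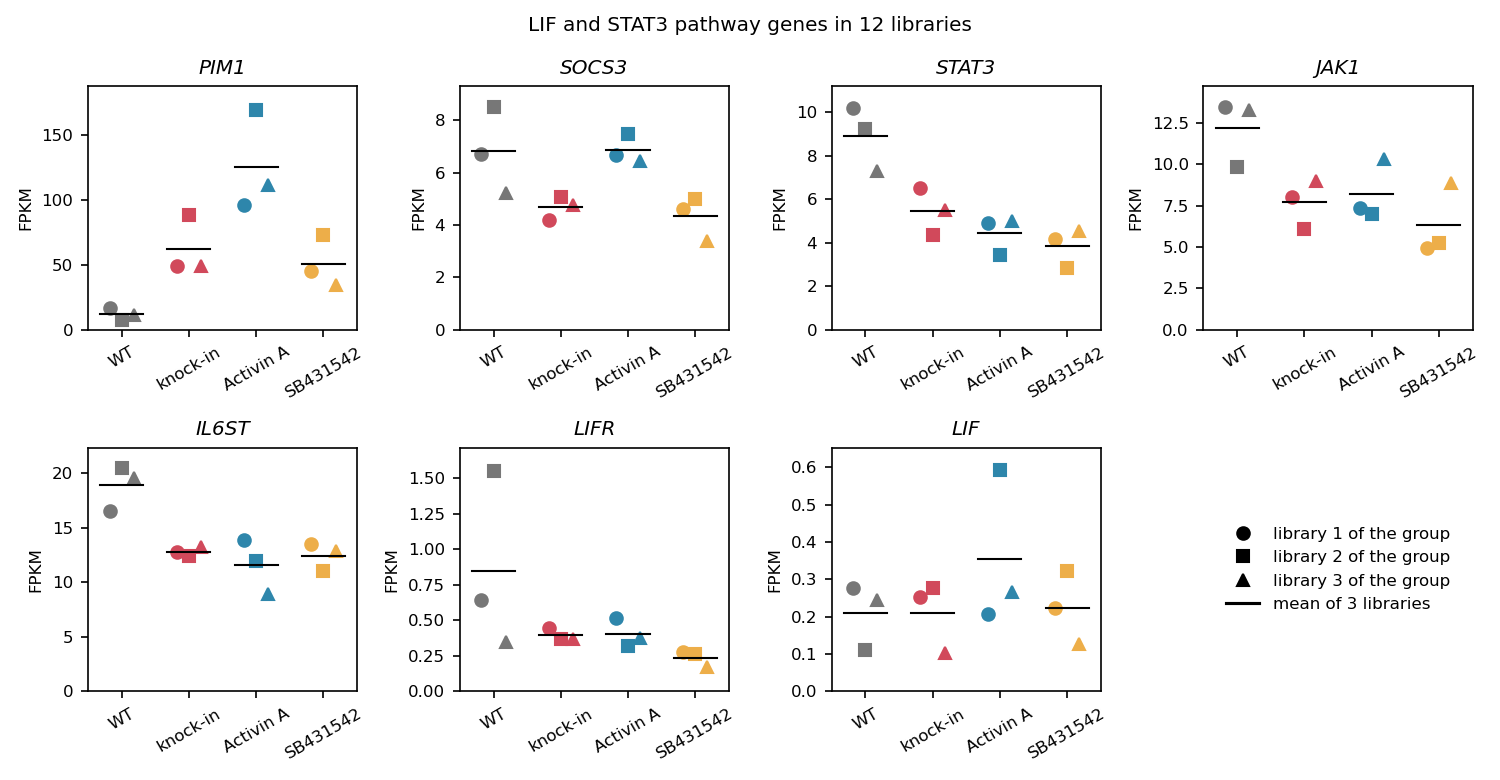
FPKM (y axis, from 0) of the 7 measured genes in WT, knock-in, Activin A and SB431542 libraries (x axis), with 1 point per library, its shape giving the library's number, and a line at the mean of 3. PIM1 runs from 7.87 to 16.5 FPKM in WT and from 34.5 to 169 FPKM elsewhere, while WT is highest for STAT3 and IL6ST.

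FPKM is scaled to transcript length, so the genes can be ranked within a group. In WT the order by mean level was IL6ST at 18.9 ± 2.07 FPKM (SD, n = 3), JAK1 at 12.2 ± 2.05, PIM1 at 11.8 ± 4.32, STAT3 at 8.92 ± 1.47, SOCS3 at 6.81 ± 1.66, LIFR at 0.847 ± 0.628 and LIF at 0.211 ± 0.0891. IL6ST stood above JAK1 without overlap, whereas JAK1, PIM1, STAT3 and SOCS3 each overlapped with the next of them. In the other groups PIM1 came first, at 62.5 ± 22.7 FPKM in knock-in, 126 ± 38.5 in Activin A and 50.9 ± 19.9 in SB431542, and IL6ST second, at 12.8 ± 0.370, 11.6 ± 2.51 and 12.5 ± 1.31 FPKM, with every PIM1 value of a group above every IL6ST value. JAK1 came next in all 3, with some overlap with the gene after it, and it overlapped with IL6ST in Activin A only. STAT3 and SOCS3 followed, at 5.46 ± 1.09 and 4.67 ± 0.456 FPKM in knock-in, 4.46 ± 0.872 and 6.87 ± 0.547 in Activin A and 3.84 ± 0.898 and 4.34 ± 0.836 in SB431542, and SOCS3 was above STAT3 without overlap in Activin A, while they overlapped in knock-in and SB431542. LIFR and LIF closed the order in all groups, at means of 0.237 to 0.847 FPKM and 0.210 to 0.354 FPKM.

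The first comparison asked whether the pathway's genes differed between cultures that, per the methods, lacked LIF (Activin A and SB431542) and knock-in cells, which had it. No measured gene of the pathway passed the test. The mean of both agents minus knock-in, on the log2(FPKM + 1) scale, was 0.19 for SOCS3 (95% interval -0.13 to 0.51) and 0.35 for PIM1 (-0.29 to 1.00), so that neither estimate was below 0. Leaving out single libraries gave 0.12 to 0.25 for SOCS3 and 0.21 to 0.63 for PIM1. STAT3 had the largest difference downwards, of -0.33 (SE 0.17, interval -0.70 to 0.035), with an adjusted p of 1 by limma. JAK1 gave -0.09 (-0.51 to 0.33), IL6ST -0.10 (-0.37 to 0.18), LIFR -0.08 (-0.43 to 0.26) and LIF 0.09 (-0.13 to 0.30).

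A gene was called in limma where it differed by 1 or more on the log2 scale, in either direction, and its p, adjusted after Benjamini-Hochberg, was no higher than 0.05. By this rule 0 of 7 genes were called, beside 0% of the 14633 genes tested, and 0 of 7 had an unadjusted p under 0.05 beside 1.15% of all genes. All 7 overlapped between the groups, beside 0.704% of all genes that did not. The exact two-sided permutation test of 6 against 3 libraries gave p = 0.119 for STAT3, 0.393 for SOCS3 and 0.548 for PIM1, where 0.0119 is the smallest p it allows. Like the exact tests below, it treats libraries as unpaired and ignores the pairs of library numbers described next. A p that misses the threshold does not show that levels were equal, and the intervals give the differences that remain possible. The presence of LIF, the agent and any difference in feeders, passage or sequencing run cannot be told apart in this comparison.

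The average of both agents was made of opposite values for PIM1. Libraries of the same number deviated together across knock-in, Activin A and SB431542 and were taken as pairs, so that each treated library can be set against the knock-in library of its number. PIM1 with Activin A was 1.95, 1.91 and 2.26 times its knock-in level, and with SB431542 it was 0.913, 0.823 and 0.700 times. SOCS3 with Activin A was 1.60, 1.47 and 1.36 times, and with SB431542 1.10, 0.984 and 0.716 times.

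**Figure D2:**
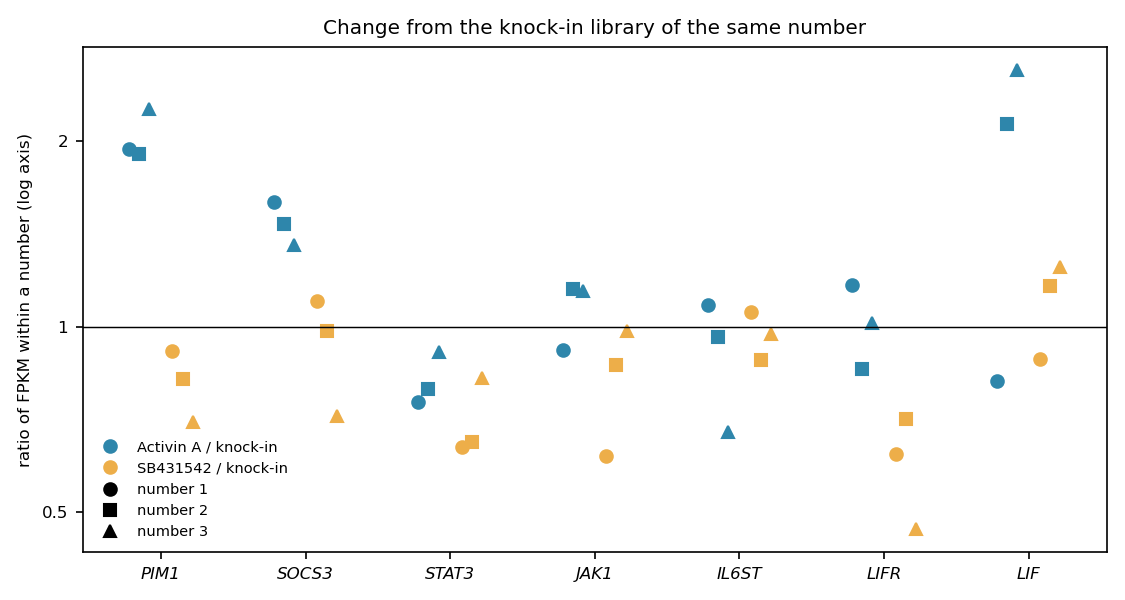
Ratio of FPKM (y axis, log scale) in an Activin A or SB431542 library to the knock-in library of the same number, for each of 7 genes (x axis), with 1 point per number. All PIM1 ratios lie above 1 with Activin A (1.91 to 2.26) and below 1 with SB431542 (0.700 to 0.913), and all STAT3 ratios lie below 1 with either agent.

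STAT3 was below its knock-in level in 6 of 6 such ratios, at 0.753, 0.792 and 0.910 times with Activin A and 0.636, 0.649 and 0.825 times with SB431542. Both sets of ratios have the same 3 knock-in libraries as denominators, and 3.07% of 13775 genes were below knock-in in 6 of 6. In a limma fit of these 9 libraries with the replicate number as a block, which was added after the data were seen, STAT3 differed by -0.33 (interval -0.50 to -0.16) with an unadjusted p of 0.0025 and an adjusted p of 0.61, so that the call did not change. LIFR was below knock-in in 3 of 3 SB431542 libraries, at 0.620, 0.707 and 0.468 times, and at 1.17, 0.854 and 1.01 times with Activin A.

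Taken 1 agent at a time, Activin A minus knock-in was 1.01 for PIM1 (SE 0.34, interval 0.26 to 1.76, adjusted p of 1 by limma) and 0.47 for SOCS3 (SE 0.17, interval 0.10 to 0.84, adjusted p of 1). These were the 2 of 7 genes with an unadjusted p under 0.05 and, with groups that did not overlap, both lay higher with Activin A, beside 2.95% of all genes at that p and 4.38% higher without overlap. No gene of the pathway was called, beside 0.0205% of all genes. With the block over 9 libraries, which was added after the data were seen, PIM1 was called (SE 0.10, adjusted p = 0.0186 by limma), beside 0.161% of 14313 genes, and SOCS3 was not (adjusted p = 0.15). With the block over 12 libraries PIM1 was not called (adjusted p = 0.82 by limma). For SB431542 minus knock-in, 0 of 7 genes were called by limma, beside 0% of all genes, and 0 had an unadjusted p under 0.05 beside 3.32%. The nearest to that p was STAT3 at -0.42 (interval -0.85 to 0.0035). LIFR at -0.17 was the only 1 of 7 that did not overlap, beside 4.24% of all genes lower without overlap. Under alternatives other than leaving out a library, the LIFR difference reached -0.74. With the block over 9 libraries STAT3 had an interval of -0.62 to -0.22 and an adjusted p of 0.085 by limma, and 0 of 7 genes were called beside 0.0978% of 14313 genes. With the block over 12 libraries its adjusted p was 0.79.

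The second comparison set Activin A against SB431542, where, per the methods, neither culture had LIF. Whether both had the same feeder conditions is not stated, and such a difference could not be told apart from the agent. PIM1 and SOCS3 were higher with Activin A in every library. The Activin A to SB431542 ratio within a number was 2.13, 2.32 and 3.23 for PIM1 and 1.45, 1.50 and 1.89 for SOCS3. PIM1 differed by 1.31 on the log2(FPKM + 1) scale (SE 0.31, interval 0.58 to 2.05, unadjusted p = 0.0042, adjusted p = 0.185 by limma) and SOCS3 by 0.57 (SE 0.14, interval 0.22 to 0.92, unadjusted p = 0.0062, adjusted p = 0.20 by limma). Neither passed the test without the block.

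With the replicate number as a block, PIM1 was called in limma at the same difference, with an SE of 0.12 and an adjusted p of 0.024 in 6 libraries and of 0.00124 in 9 libraries. SOCS3 had an adjusted p of 0.059 and of 0.017 in these fits and, with a difference under 1, was not called. In this comparison 0 of 7 genes were called without the block, beside 0.0929% of 13999 genes, and 1 of 7 with it, beside 0.707% in 6 libraries and 0.908% in 9.

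On this scale the genes upstream of the targets gave smaller differences, but it understates changes of the low genes LIFR and LIF. Under alternatives other than leaving out a library, LIFR reached 0.74 and LIF 0.58. The LIFR ratio of Activin A to SB431542 within a number was 1.88, 1.21 and 2.17. LIFR differed by 0.18 (SE 0.084, adjusted p = 0.44), JAK1 by 0.35 (adjusted p = 0.57), STAT3 by 0.18 (adjusted p = 0.73), LIF by 0.14 (adjusted p = 0.68) and IL6ST by -0.11 (adjusted p = 0.82), all by limma. PIM1, SOCS3 and LIFR were the 3 of 7 genes whose groups did not overlap, all higher with Activin A, beside 9.19% of all genes higher without overlap. The exact permutation test gave p = 0.1 for each of these 3, the smallest that 3 against 3 libraries allow. Summed fibroblast markers were also higher with Activin A, at 82.6 to 119 against 47.3 to 52.1 FPKM, and summed pericyte markers lower, at 44.1 to 49.9 against 59.2 to 60.2 FPKM, with NANOG called higher (3.18) and ACTA2 lower (-1.13). Of 7 fibroblast markers tested, 5 lay above 0. LIN28A (-1.55) and KRT8 (-1.2) were lower with Activin A in each same-numbered pair and were not called by limma without the block. Of 7 pericyte markers tested, 3 lay above 0, with a median of -0.06, and NOTCH3 (0.41, adjusted p = 0.33 by limma) was higher with Activin A without overlap and was named after its values were seen. The part of these markers in the result was not tested.

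The third comparison, knock-in against WT, was made between groups that both had LIF. PIM1 was higher in knock-in cells by 2.30 (SE 0.30, interval 1.60 to 3.01, adjusted p = 0.0116 by limma), and 3 of 3 knock-in libraries lay above all WT libraries. The receptor, the kinase, STAT3 and SOCS3 lay the other way. IL6ST differed by -0.52 (SE 0.12, adjusted p = 0.043 by limma), which passed the adjusted p, as 7.22% of all genes did, but not the fold threshold. Its adjusted p ran from 0.033 to 0.15 over the alternatives and was above 0.05 with the replicate block (0.082), with TPM (0.056), with no filter (0.055) and without any 1 of the 6 libraries. STAT3 differed by -0.62 (SE 0.18, adjusted p = 0.080), JAK1 by -0.60 (SE 0.18, adjusted p = 0.087) and SOCS3 by -0.44 (SE 0.19, adjusted p = 0.167), and none of these 3 passed. Over the alternatives the adjusted p of STAT3 by limma ran from 0.048, with all 12 libraries in the fit, to 0.23.

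**Figure D3:**
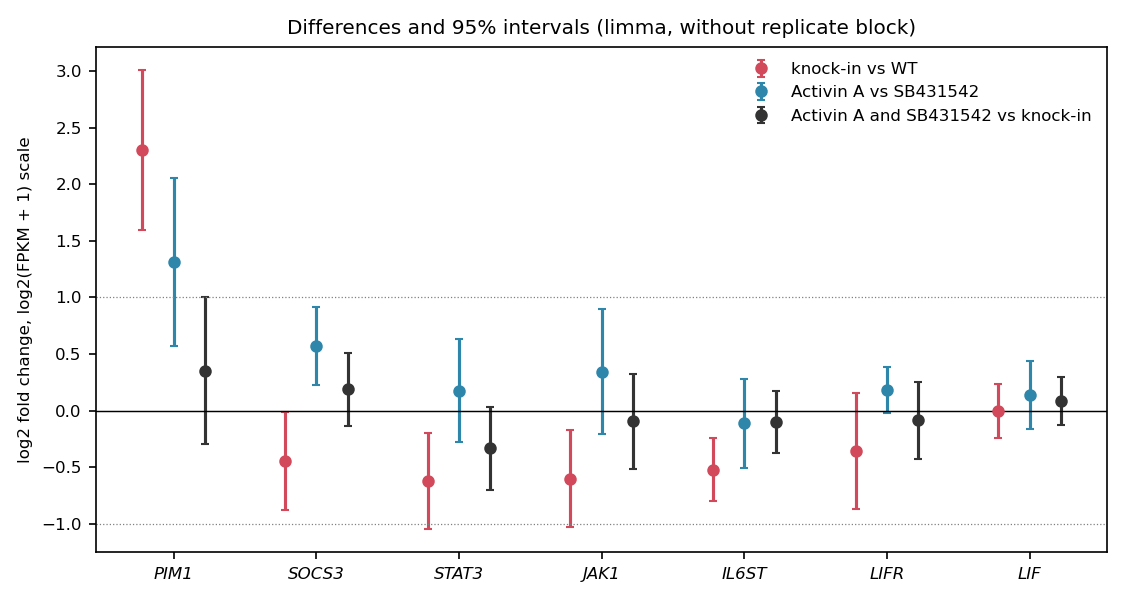
Difference between groups on the log2(FPKM + 1) scale (y axis) with its 95% interval for 7 genes (x axis) in 3 comparisons, from limma without the replicate block; dotted lines mark the fold threshold of 1. PIM1 is at 2.30 in knock-in against WT, at 1.31 in Activin A against SB431542 and at 0.35 in both agents against knock-in.

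Thus 1 of 7 genes was called in knock-in against WT, beside 2.31% of 14014 genes called in all and 1.61% called higher, and 5 of 7 had an unadjusted p under 0.05 beside 28.6% of all genes. The 5 genes were also those whose groups did not overlap, beside 35.7% of all genes (19% higher and 16.7% lower), PIM1 higher and IL6ST, STAT3, JAK1 and SOCS3 lower. LIFR gave -0.35 (adjusted p = 0.32) and LIF -0.0011 (adjusted p = 0.996), with overlap in both. The LIFR value ran from -0.55 to -0.093 without single libraries and was -0.83 with a pseudocount of 0.01. The exact permutation test gave p = 0.1 for each of the 5, its smallest possible value. Summed fibroblast, pericyte, pluripotent and differentiated cell markers were higher in every knock-in library than in any WT library, and relative depth was lower in WT. Gene by gene, 5 of 7 fibroblast, 6 of 7 pericyte, 4 of 5 pluripotent and 5 of 7 differentiated cell markers tested lay above 0. The fibroblast marker COL1A1 was lower in knock-in without overlap (-0.39, adjusted p = 0.16 by limma) and was named after its values were seen. Of these markers LIN28A (2.08), NANOG (2.06), DCN (1.49), ACTA2 (2.61), PDGFRB (1.64) and KRT8 (4.13) were called higher in knock-in and PAX6 (-2.17) lower. KRT8, an epithelial keratin, was at 3.34 to 8.50 FPKM in WT and at 96.7, 428 and 44.3 FPKM in knock-in, 35.3 to 334 in Activin A and 90.4 to 835 in SB431542 libraries, with library 2 the highest of these groups as for PIM1. Their part in these results was not tested.

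Other known STAT3 targets were taken as a list of 29 genes. In knock-in against WT, 23 were tested and 3 were called, all higher, beside 1.61% of all genes called higher, with a median difference of 0.31 over the list beside -0.0014 over all genes. PIM3, a kinase related to PIM1, was at 2.38, 1.97 and 2.56 FPKM in WT and 7.98, 13.4 and 9.38 FPKM in knock-in libraries (1.74, adjusted p = 0.0077 by limma). CEBPB, a transcription factor of the acute phase response, was at 1.15, 0.396 and 0.630 FPKM in WT and 2.81, 3.32 and 3.94 FPKM in knock-in (1.35, adjusted p = 0.015), and BCL2L1, which encodes the survival factor BCL-XL, from 10.5 to 12.1 FPKM in WT and at 20.8, 28.8 and 21.6 FPKM in knock-in (1.00, adjusted p = 0.015). All 3 were separate between the groups, as 19% of all genes were in that direction.

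Of the other targets named by the rule, KLF4, MYC and BCL3 did not pass in this comparison. KLF4, a pluripotency transcription factor downstream of STAT3, gave 0.12 (adjusted p = 0.72), MYC -0.28 (adjusted p = 0.34) and BCL3, an IκB-like cofactor, -0.64 (adjusted p = 0.10). KLF4 and MYC were also reprogramming factors of these cells. In every comparison their values may include reads of introduced copies, which need not follow STAT3, and this was not tested. JUNB, an immediate early gene, was under the filter on low values, with 0.0563 FPKM as its highest value in any library.

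When both agents were set against knock-in, 25 of these 29 targets were tested, 0 were called by limma, 1 had an unadjusted p under 0.05 beside 1.15% of all genes and 13 had a difference above 0, with a median of 0.00043 beside -0.00052 over all genes. KLF4 gave -0.05, MYC 0.06, PIM3 0.17 and BCL3 0.01, with intervals from -0.41 to 0.30, -0.27 to 0.40, -0.35 to 0.70 and -0.32 to 0.34. BCL2L1 was the 1 target at that p for the mean of both agents, at 0.73 (interval 0.17 to 1.28), and was named here after its values were seen. Its ratios to knock-in were 2.62, 2.34 and 2.72 with Activin A, without overlap between the groups, and 0.907, 1.70 and 0.865 with SB431542, with overlap. For each agent alone, with the same 3 knock-in libraries in both counts, 17 of 25 targets lay above 0 for Activin A against knock-in (median 0.07, beside 7231 of 14633 genes and -0.0013) and 9 of 25 for SB431542 against knock-in (median -0.05, beside 7424 genes and 0.0021). By limma without the block 0 of 25 were called in either, 2 and 0 had an unadjusted p under 0.05, and the difference between the agents' counts was not tested.

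In Activin A against SB431542, 24 targets were tested and 0 were called without the block. Of them 7 had an unadjusted p under 0.05 by limma, beside 12.8% of all genes, and the median was 0.11 beside -0.0040. KLF4 gave 0.14, MYC 0.40, PIM3 0.12 and BCL3 0.11, all with an adjusted p above the threshold. FOS, an immediate early gene, was at 111, 191 and 119 FPKM with Activin A and 37.9, 51.0 and 38.0 FPKM with SB431542, without overlap. It differed by 1.68 and had an adjusted p of 0.070 without the block and of 0.011 with it by limma. FOS was thus called with the block, beside 0.707% of all genes called with it in 6 libraries. BCL2L1, at 54.6, 67.2 and 58.6 against 18.9, 48.8 and 18.6 FPKM, differed by 1.18, with an adjusted p of 0.27 without the block, 0.076 with it and 0.017 with it over 9 libraries. In the last of these fits BCL2L1 was thus called, beside 0.908% of all genes. CEBPB lay the other way, at 1.24, 1.58 and 3.004 FPKM with Activin A and 5.16, 7.60 and 3.18 FPKM with SB431542, without overlap. It differed by -1.09, with an adjusted p of 0.26 without the block, 0.155 with it and 0.058 with it over 9 libraries by limma. FOS, BCL2L1 and CEBPB were named here after their values were seen.

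**Figure D4:**
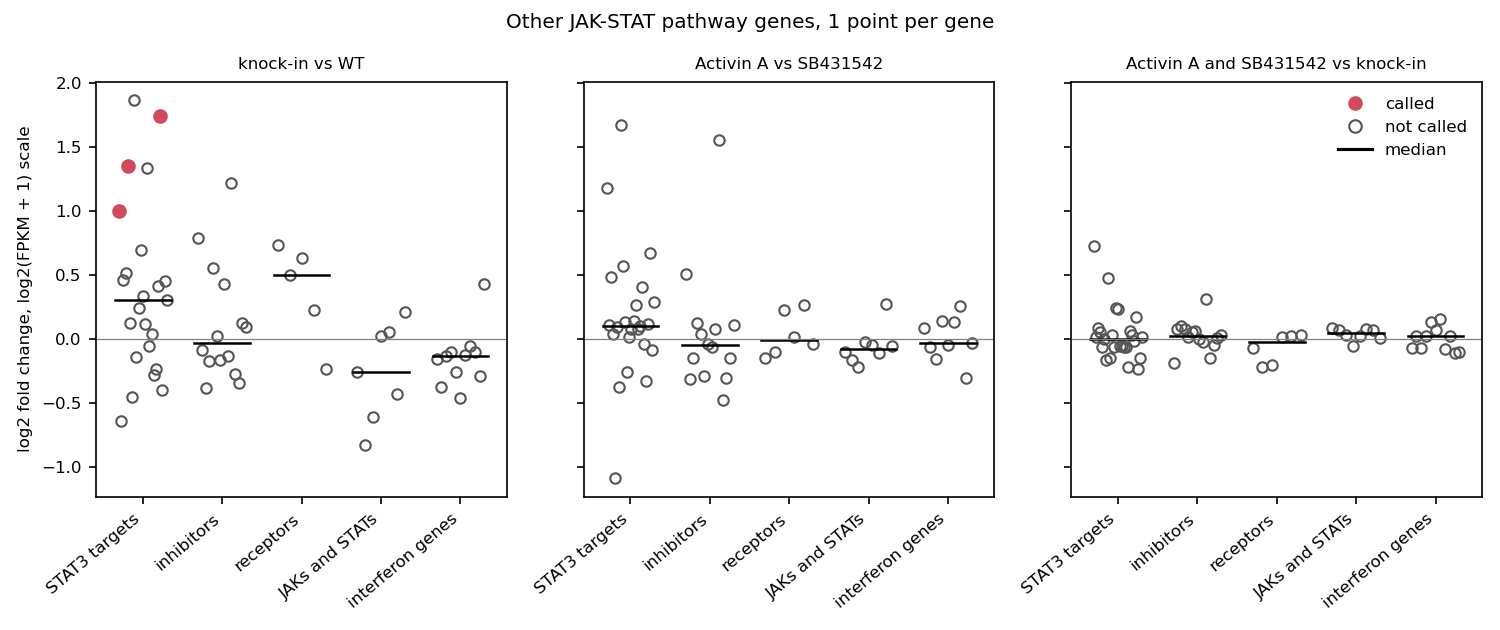
Difference between groups on the log2(FPKM + 1) scale (y axis) for the other genes of 5 lists (x axis) in 3 comparisons, with 1 point per gene tested, filled where called, and a line at the list's median. Calls are from limma without the replicate block. The 3 called genes are STAT3 targets in knock-in against WT, and no gene is called in the other panels.

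Of 15 other inhibitors of JAK-STAT signalling, 14 were tested in each comparison and 0 were called by limma without the block. Their medians were -0.03 in knock-in against WT, -0.05 in Activin A against SB431542 and 0.02 in both agents against knock-in, with 5, 4 and 0 of 14 genes at an unadjusted p under 0.05 beside 28.6%, 12.8% and 1.15% of all genes. CISH, a SOCS family inhibitor induced by STAT5, was at 0.560, 0.714 and 0.698 FPKM in WT, 2.87, 1.28 and 1.66 in knock-in, 2.01, 1.94 and 2.08 in Activin A and 1.25, 0.939 and 1.16 in SB431542 libraries. It gave 0.79 in knock-in against WT (adjusted p = 0.055) and 0.51 in Activin A against SB431542 (adjusted p = 0.14), without overlap in either.

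SOCS1, a direct inhibitor of JAK kinases, was named after its values were seen. It was at 0.899, 0.867 and 1.91 FPKM in WT, 2.27, 4.71 and 5.96 in knock-in, 6.28, 9.77 and 15.0 in Activin A and 2.00, 3.40 and 2.73 in SB431542 libraries. Activin A libraries were the highest for it, without overlap with the other groups. Its difference between Activin A and SB431542 was 1.56 (SE 0.30), with an adjusted p of 0.14 without the block and of 0.034 with it by limma. SOCS1 was thus called with the block, beside 0.707% of all genes called with it in 6 libraries.

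Other receptors, kinases and STAT factors were not called in any of the 3 comparisons by limma without the block. Of 7 other receptors of the family, 5 were tested in knock-in against WT with a median of 0.50, and 3 had an unadjusted p under 0.05 beside 28.6% of all genes. IL6R, the interleukin 6 receptor, gave 0.23 and OSMR, the oncostatin M receptor, -0.24. Of 9 other JAK and STAT genes, 7 were tested there with a median of -0.26. JAK2, another receptor-bound kinase, gave -0.26 (adjusted p = 0.29).

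In both agents against knock-in these lists gave medians of -0.03 for receptors and 0.05 for JAK and STAT genes, with 0 genes called and 0 at an unadjusted p under 0.05 by limma. IL6R gave 0.03, OSMR 0.03, JAK2 0.09 and CISH -0.19. In Activin A against SB431542 the medians were -0.01 and -0.08, and IL6R gave 0.27, OSMR -0.04 and JAK2 -0.10. Interferon-induced genes, which read out another pathway that uses JAK1, had 0 of 11, 0 of 9 and 0 of 11 called in knock-in against WT, Activin A against SB431542 and both agents against knock-in, with medians of -0.14, -0.03 and 0.03. Other ligands of the family had 4 of 9 tested in each comparison and 0 called.

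Across the 12 libraries, the genes whose log2(FPKM + 1) values were most like those of PIM1 among 10500 genes included SLC25A25 and NUAK2, with Pearson r of 0.971 and 0.970. For SOCS3 they were SLC25A17, LYPD6 and SNRK, at 0.896, 0.874 and 0.858, and for STAT3 they were PSMB8, CTNNB1 and TMEM266, at 0.949, 0.949 and 0.945. JAK1 was most like CBLN1, RPL10 and SGTB, at 0.964, 0.961 and 0.961, and IL6ST most like RBM25, ZFP30 and ZNF260, at 0.962, 0.938 and 0.936. No gene of the pathway was among the 3 nearest of another. These values are descriptions over libraries that share lines and groups.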

How the data were processed

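The authors trimmed reads, aligned them to Ssc11.1 with HISAT2 2.0.4 and deposited FPKM per gene from StringTie 1.3.3, in 1 table holding knock-in and WT libraries and another holding the treated ones; per the labels they also ran bcl2fastq 2.17.1.14, featureCounts 1.6.4 and DESeq2. Read counts were not used here, so depth is relative and no counting error can be given. FPKM is scaled within each library, so both tables entered 1 fit of 12 libraries for comparisons with knock-in; the other comparisons used 6 libraries of 1 table.

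Genes with at least 0.1 FPKM in 3 libraries were kept, a pseudocount of 1 was added and log2 values were tested with limma 3.58.1 (variance trend, R 4.3.3), with Benjamini-Hochberg adjustment over all genes tested. Fold changes are on that scale, which understates changes of low genes. Calls needed a log2 difference of 1 or more in size and an adjusted p no higher than 0.05. The fit was tested on simulated data, and no value from that test is given here. Python 3.11.15 with matplotlib 3.10.9 drew the figures.

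The genes described and all lists were chosen with earlier results of these data known. Named genes were the members, NANOG, a fixed set of pathway genes (PIM3, BCL3, JUNB, KLF4, MYC, IL6R, OSMR, JAK2 and CISH), up to 5 called genes per list, and the 3 genes most like each member with a mean of at least 1 FPKM; other names are marked as chosen after their values were seen. Some genes that this rule names are not reported here.

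The labels number the libraries of each group, and the paper numbers its chosen knock-in lines likewise. Deviations from group means correlated at 0.372 to 0.657 for the 9 same-numbered pairs among knock-in, Activin A and SB431542, at -0.497 to -0.0784 for the 18 others, and at -0.0898 to 0.101 for same-numbered pairs with WT, over 14633 genes. The numbers were therefore taken as pairs among the first 3 groups only. The replicate block in knock-in against WT and over 12 libraries, run as an alternative, also links WT libraries by number, where these correlations show no pairing. Coordinates are RefSeq's for Sscrofa11.1, matched by symbol; no sequences were used. LIFR had no entry under its symbol.

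Alternatives were a pseudocount of 0.1 or 0.01, dropping the filter or raising it to 1 FPKM, scaling by TPM, median ratios or quantiles, no variance trend, the adjusted p alone, other sets of libraries, the replicate block and leaving out each library. Each agent alone and the block over 9 libraries were added after the data were seen.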

Additional observations from a re-analysis of the deposited data

Results flagged for a closer look

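In 6 of 21 genes looked at, which were genes of the pathway, its targets and NANOG with 4 of them chosen after their values were seen, all 3 Activin A libraries moved one way from the knock-in library of their number and all 3 SB431542 libraries the other way. This opposition was seen ratio by ratio and was not itself tested, and 10.8% of 13775 genes showed it. For PIM1 the median Activin A to SB431542 ratio was 2.32, with 1.91 to 2.26 times the knock-in level under Activin A and 0.700 to 0.913 times under SB431542. NANOG had a median ratio of 9.29, with 1.93 to 2.23 and 0.168 to 0.269 times. SOCS1 had a median ratio of 3.14, with 2.08 to 2.76 and 0.457 to 0.880 times, and FOS of 3.13, with 2.36 to 2.76 and 0.736 to 0.804 times. MYC had a median ratio of 1.38, with 1.16 to 1.24 and 0.835 to 0.994 times, and IL6R of 1.88, with 1.08 to 1.79 and 0.570 to 0.950 times at levels of 0.206 to 0.802 FPKM. The MYC values may include reads of the copy introduced for reprogramming. Both agents share the knock-in libraries as their denominator.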

How the results depend on the processing

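Of 704 results for single genes of the pathway under alternatives, 683 kept their direction and their side of the threshold, 18 turned direction, 0 lost a call and 3 gained one, all PIM1 with a replicate block. PIM1 in knock-in against WT remained at 2.03 to 2.55 when single libraries were left out, with adjusted p of 0.0020 to 0.044 over all alternatives, while in Activin A against SB431542 its adjusted p ran from 0.0012 to 0.44. Both agents against knock-in gave 0 called genes under 24 of 24 alternatives.

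Genes called in knock-in against WT, 324 as reported, came to 538 and 501 with pseudocounts of 0.1 and 0.01, 199 with no filter and 1012 with the adjusted p alone, which also added IL6ST for 2 called genes of the pathway (its adjusted p was above 0.05 in several alternatives). Leaving out single libraries gave 145 to 446, the lowest being 145 and 150 without knock-in 1 and 2 and 177 without WT 1. In Activin A against SB431542 the count of 13 came to 8 with a pseudocount of 0.01, 5 with no filter, 5 with a filter of 1 FPKM, 7 without the variance trend, 27 with 12 libraries in the fit, 99 with the replicate block and 130 with the block over 9 libraries, each block fit calling 1 gene of the pathway, PIM1. Leaving out any 1 library gave 0 to 5 (Activin A 1, 2 and 3 gave 1, 0 and 2, and SB431542 1, 2 and 3 gave 0, 5 and 0). Activin A against knock-in, with 3 calls, gave 0 with a pseudocount of 0.01, 5 with TPM, 6 with the replicate block over 12 libraries, 5 with the adjusted p alone and 23 with the block over 9 libraries, 1 of them PIM1; leaving out libraries gave 0 to 5, with 0 without knock-in 2, knock-in 3 or Activin A 3, 1 without Activin A 2 and 5 without SB431542 2. SB431542 against knock-in went from 0 to 14 calls with the block over 9 libraries. The block changed no other call among the measured genes of the pathway. Outside them, FOS and SOCS1 were called with the block in Activin A against SB431542, and BCL2L1 with the block over 9 libraries.

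Directions turned only for differences near 0. LIF in knock-in against WT was 0.0074 with TPM and 0.020 with quantile scaling, and -0.063 to 0.065 without single libraries. LIFR in Activin A against knock-in was -0.011 with quantile scaling, and -0.053 to 0.051 without single libraries. Without single libraries, IL6ST ran from -0.24 to 0.052 in Activin A against SB431542, from -0.28 to 0.0092 in Activin A against knock-in and from -0.10 to 0.037 in SB431542 against knock-in. JAK1 ran from -0.24 to 0.014 in both agents against knock-in and from -0.077 to 0.19 in Activin A against knock-in. In SB431542 against knock-in LIF ran from -0.050 to 0.075 and SOCS3 from -0.19 to 0.036. The causes were not tested. LIF and LIFR had no value under the filter of 1 FPKM. Under alternatives other than leaving out a library, LIFR reached -0.83 in knock-in against WT, where -0.35 was reported. It reached 0.74 in Activin A against SB431542 (0.18 as reported) and -0.74 in SB431542 against knock-in (-0.17 as reported).

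The number of libraries, 3 a group, limits the precision, and read counts were not used, so that counting error at the low levels of LIF and LIFR is unknown. Scaling moved the median of all genes by under 0.1 on the log2 scale.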
